A study of Mus musculus with 57 samples.

Results

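Stromal cells and stem cells from the marrow of the same mice were compared, in control animals only, for the signals that the stroma makes and the receptors that stem cells carry. The comparison rests on 6 of the 57 libraries of the series, 3 of mesenchymal stromal cells (MSC) and 3 of haematopoietic stem cells (HSC). They are all the control libraries of mouse pools 3, 5 and 7 with these labels, so the choice used no measured value. Both populations came from male C57BL/6 mice, 8 weeks old, that received a control antibody for 4 weeks. No altered allele is labelled in either population, and the arm of the study that received an antibody against PAPP-A was not used. All 6 libraries carry the batch label A. Libraries with 1 pool number come from the same mice, whose number is not given. The gates used to sort the cells are also not given in the sources used here, so each population is known by its label and its transcripts. A further comparison set the same 3 HSC libraries against 9 control libraries of the same pools and treatment, 3 from each of the lymphoid (CLP), granulocyte-monocyte (GMP) and megakaryocyte-erythroid (MEP) progenitors.

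Haematopoietic stem cells sit beside stromal cells that surround the sinusoids and arterioles of the marrow. In mice these stromal cells are known by their leptin receptor and by very high expression of the chemokine CXCL12, which retains stem cells in the marrow through its receptor CXCR4. They also make stem cell factor, encoded by Kitl, whose receptor KIT is needed to maintain stem cells. Angiopoietins acting on TIE2, Notch and Wnt ligands, and adhesion of VCAM1 to integrins are further signals studied between these cells. The same stromal cells can produce osteoblasts and adipocytes and deposit much of the marrow's matrix.

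Depth differed between the populations. Total estimated counts were 3753007, 1431006 and 321860 in MSC pools 3, 5 and 7, against 8331468, 9023967 and 8023673 in the HSC libraries of those pools. MSC pool 7 stood apart from the other 5 libraries: immunoglobulin transcripts took 17.6% of its counts and ribosomal RNA-like transcripts 38.7%, and both together took 56.3%, against 0.952 to 4.76% in the others. Its Pearson correlation with the other MSC libraries across genes was 0.74 and 0.715, where those correlated at 0.879, the HSC libraries among themselves at 0.955 to 0.983, and MSC with HSC at 0.427 to 0.457. Levels below are counts per 1e6 counts of a library (CPM), in the order of pools 3, 5 and 7. Library sizes were adjusted for composition by edgeR's TMM method. The TMM factor was 0.4992 in MSC pool 7, against 1.065 to 1.273 in the other libraries. The adjusted size of MSC pool 7 was 154029 counts, so its CPM values exceed counts per 1e6 of its total. A single count equals 6.49 CPM in MSC pool 7, 0.254 and 0.649 CPM in the other MSC libraries and 0.0875 to 0.115 CPM in HSC, so low stromal values in pool 7 stand for 1 to 3 counts. Differences are log2 values, MSC minus HSC, from edgeR's quasi-likelihood test with the pool as a block, and a gene is called where its Benjamini-Hochberg adjusted p over all genes tested is under 0.05. SE is the standard error of the log2 difference. With the pool as a block, the p-values rest on how the MSC minus HSC difference varied across pools, with spread shared between genes. Variation from sorting and library preparation is part of that spread.

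The populations differed across much of the transcriptome. Of 14241 genes tested, 5666 were called (39.8%): 2642 were higher in MSC (18.6%) and 3024 were higher in HSC (21.2%), and the median difference over all genes tested was -0.12. With library totals in place of TMM, 5294 genes were called, 33.8% of them higher in MSC against 46.6% with TMM, and the median was -0.57. Of the genes named below, 12 lost their call under library totals, all of them higher in MSC with TMM. They were Ifitm3, Hoxa5, Hoxa10, Cdkn1c, Stat2, Fos, Junb, Itgb1, Tgfbr2, Notch1, Notch2 and Lyz2. Without pool 3, 3243 genes were called, 1565 higher in MSC and 1678 in HSC. Counts over gene lists below are to be read against the percentages above. In sorted bulk samples such as these, fewer cells of a type and less RNA per cell cannot be told apart. Genes with no count in any library of a population are described by a lower bound on the fold, set by a floor of 3 counts over the 3 libraries. Genes with 1 to 3 counts are described by the ratio of pooled levels with its 95% counting interval.

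Known stromal and stem cell genes were checked first against the labels. Cxcl12, the niche chemokine, had 40397, 35658 and 27073 CPM in MSC, against 0.677, 1.23 and 1.73 CPM in HSC (log2 14.81, SE 0.47, adjusted p = 1.56e-14). Kitl, stem cell factor, had 2175, 1543 and 1480.2 CPM in MSC, against 0.387, 0.175 and 0.806 CPM in HSC (log2 11.91, SE 0.42, adjusted p = 3.42e-15). Every MSC library lay above every HSC library for both genes, and the HSC values stood for 2 to 15 counts. Mecom, a zinc finger transcription factor needed for stem cell self-renewal, had 1.02, 0 and 0 CPM in MSC, against 106, 134 and 101 CPM in HSC (log2 -7.35, SE 0.55, adjusted p = 1.01e-10). The MSC libraries held 4 counts of it, all in pool 3. All 9 stromal markers, namely Cxcl12, Kitl, Lepr, Pdgfra, Pdgfrb, Ebf3, Foxc1, Adipoq and Vcam1, were called higher in MSC. Stem cell markers called higher in HSC included Mecom, Hlf, Procr, Kit, Slamf1, Gata2 and Meis1. Ly6a, which encodes the surface antigen SCA-1, was not called (36.6, 0 and 539 CPM in MSC, against 30.1, 31.9 and 51.2 CPM in HSC; adjusted p = 0.896). The MSC libraries ran from no count to the highest value of the 6 for that gene, which was in pool 7. Without pool 5 Ly6a was called higher in MSC (log2 1.80, adjusted p = 0.00155). Without pool 7 the sign turned, with no call (log2 -1.45, adjusted p = 0.349). With control MSC libraries of batch C, in a fit with no block, Ly6a was called higher in MSC (log2 0.92, adjusted p = 0.0159).

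Cxcl12 was the most abundant ligand of the stroma, and its receptor Cxcr4 was higher in stem cells. Cxcl12 (ENSMUSG00000061353.11) lies on chromosome 6, 117168535 to 117181367, plus strand of GRCm38 and Cxcr4 on chromosome 1, 128588199 to 128592293, minus strand. Cxcr4, the receptor that guides stem cells towards CXCL12, had 7.11, 5.84 and 19.5 CPM in MSC, against 34.2, 25.0 and 38.9 CPM in HSC (log2 -1.97, SE 0.51, adjusted p = 0.00321). The groups did not overlap, and the highest stromal value, in pool 7, rested on 3 counts. Without pool 3 the difference was -1.72 and no longer passed (adjusted p = 0.153). Kitl (ENSMUSG00000019966.18) lies on chromosome 10, 100015630 to 100100416, plus strand, and Kit on chromosome 5, 75574916 to 75656722, plus strand. Kit, the stem cell factor receptor, had 19.3, 11.7 and 13.0 CPM in MSC, against 707, 759 and 510.4 CPM in HSC (log2 -5.53, SE 0.31, adjusted p = 4.26e-13). Every HSC library was far above every MSC library, which placed ligand and receptor of this pair in opposite populations in every pool. The 250 bases upstream of the start that RefSeq gives these 4 genes are shown because RefSeq places the start of transcription beside them. The gene positions above are those of GENCODE, whose starts differ for some genes. For Kitl and Kit the window runs past the GENCODE start into the gene. They are RefSeq sequences of GRCm38.p6 on the gene's own strand, with TATA boxes (TATAAA) and GC boxes (GGGCGG), on either strand, in capitals; boxes that share letters were counted separately.
Cxcl12, chr6:117168285-117168534, plus strand: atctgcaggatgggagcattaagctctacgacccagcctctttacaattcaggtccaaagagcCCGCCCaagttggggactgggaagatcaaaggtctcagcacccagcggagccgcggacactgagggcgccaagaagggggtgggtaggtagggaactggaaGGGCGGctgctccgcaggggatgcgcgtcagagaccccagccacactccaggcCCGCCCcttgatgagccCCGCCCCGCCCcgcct
Kitl, chr10:100015571-100015820, plus strand: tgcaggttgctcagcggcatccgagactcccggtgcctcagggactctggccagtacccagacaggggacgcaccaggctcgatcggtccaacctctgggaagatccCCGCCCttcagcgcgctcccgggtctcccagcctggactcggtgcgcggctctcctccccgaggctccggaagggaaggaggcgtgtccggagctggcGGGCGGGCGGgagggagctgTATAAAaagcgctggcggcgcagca
Cxcr4, chr1:128592300-128592549, minus strand: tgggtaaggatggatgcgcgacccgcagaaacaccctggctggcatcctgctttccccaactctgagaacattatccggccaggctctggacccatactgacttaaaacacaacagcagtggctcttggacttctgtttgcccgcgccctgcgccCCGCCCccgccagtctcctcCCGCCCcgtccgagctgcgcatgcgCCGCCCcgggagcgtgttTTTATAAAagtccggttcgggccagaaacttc
Kit, chr5:75574737-75574986, plus strand: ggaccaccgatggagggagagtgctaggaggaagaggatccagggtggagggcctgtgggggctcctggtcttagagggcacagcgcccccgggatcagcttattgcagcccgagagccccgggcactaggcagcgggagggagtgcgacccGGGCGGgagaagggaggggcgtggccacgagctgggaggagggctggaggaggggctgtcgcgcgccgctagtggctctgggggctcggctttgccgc

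The upstream regions of these 4 genes were rich in G and C. Their GC content was 64.4% for Cxcl12, 69.2% for Kitl, 61.2% for Cxcr4 and 70.8% for Kit, against a median of 52% over 27025 mouse promoters of the same length. They held 14, 23, 19 and 17 CpG dinucleotides, against a median of 6. The ligand promoter of Cxcl12 held 5 GC boxes and no TATA box. That of Kitl held 3 GC boxes and 1 TATA box, 25 bases before the RefSeq start. The Cxcr4 region held 3 GC boxes and 2 overlapping matches to the TATA box, at 32 and 30 bases, and the Kit region held 1 GC box and no TATA box. GC boxes occurred in 32.9% of all promoters and TATA boxes in 13%. These matches describe letters in the window only.

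Across the 63 ligand-receptor pairs examined, stromal cells carried more of the ligands. Of 54 distinct ligands 47 were tested: 33 were higher in MSC, 3 were higher in HSC and 11 were not called, with a median difference of 5.00 against -0.12 over all genes tested. The 3 ligands higher in HSC were Angpt1, Pdgfb and Tgfb1. Of 53 distinct receptors 49 were tested: 26 were higher in MSC, 10 in HSC and 13 were not called, with a median of 1.52. The share of receptors higher in HSC was near the 21.2% of all genes tested. The share higher in MSC was above their 18.6%. Both genes were tested in 52 pairs. In 8 of them the ligand was higher in MSC and the receptor in HSC: Cxcl12-Cxcr4, Kitl-Kit, Angpt2-Tek, Igf1-Igf1r, Igf2-Igf1r, Wnt4-Fzd6, Vcam1-Itga4 and Lama4-Itga6. In 20 pairs both genes were higher in MSC, in 2 the ligand was higher in HSC and the receptor in MSC, and in 1 both were higher in HSC. How many pairs of each kind unrelated ligands and receptors would give was not tested. Of the 8 pairs with the ligand higher in MSC and the receptor in HSC, leaving out pool 3 left 5, without Cxcl12-Cxcr4 and both Igf1r pairs. Leaving out pool 5 left 6, and leaving out pool 7 left 6 and added Spp1-Cd44, in both cases without the Igf1r pairs.

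**Figure D1:**
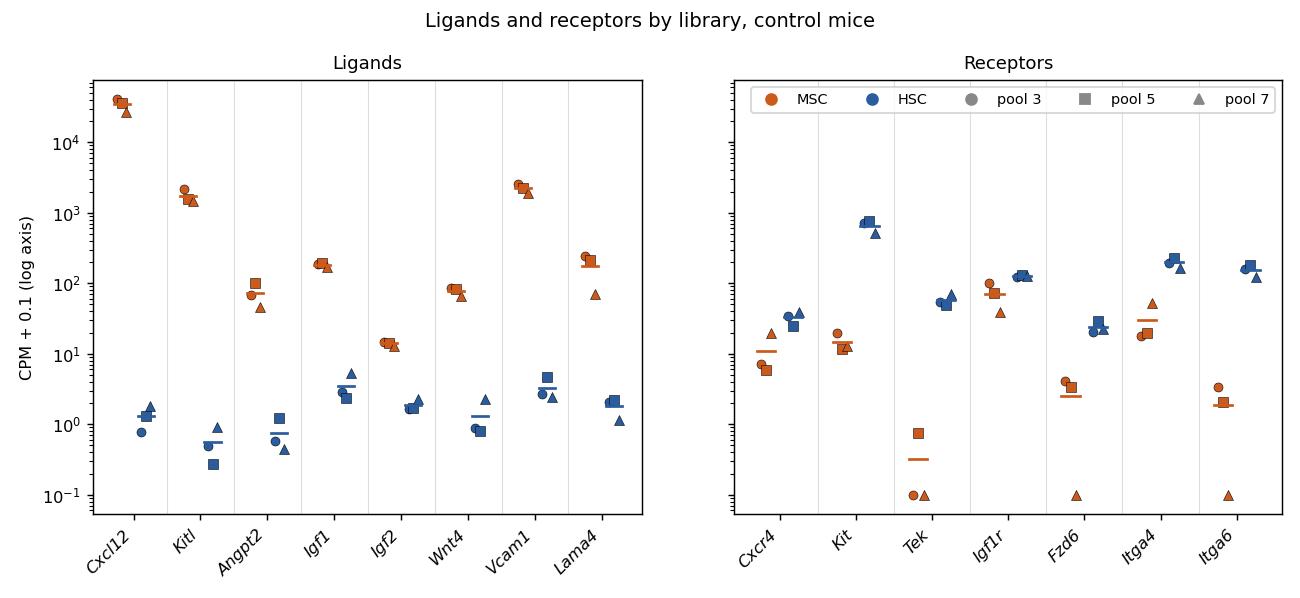
Levels of the 8 ligands (left) and 7 receptors (right) of the pairs with the ligand higher in MSC and the receptor higher in HSC, in CPM plus 0.1 on a log axis. Each point is 1 library (circle, pool 3; square, pool 5; triangle, pool 7), orange for MSC and blue for HSC, and bars are means of 3 libraries. Every ligand lies higher in all MSC libraries than in any HSC library, from Cxcl12 at 27073 CPM or more down to Igf2 at 13.0 to 14.7 CPM, and the receptors lie higher in HSC, with Igf1r and Cxcr4 the least apart.

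**Figure D2:**
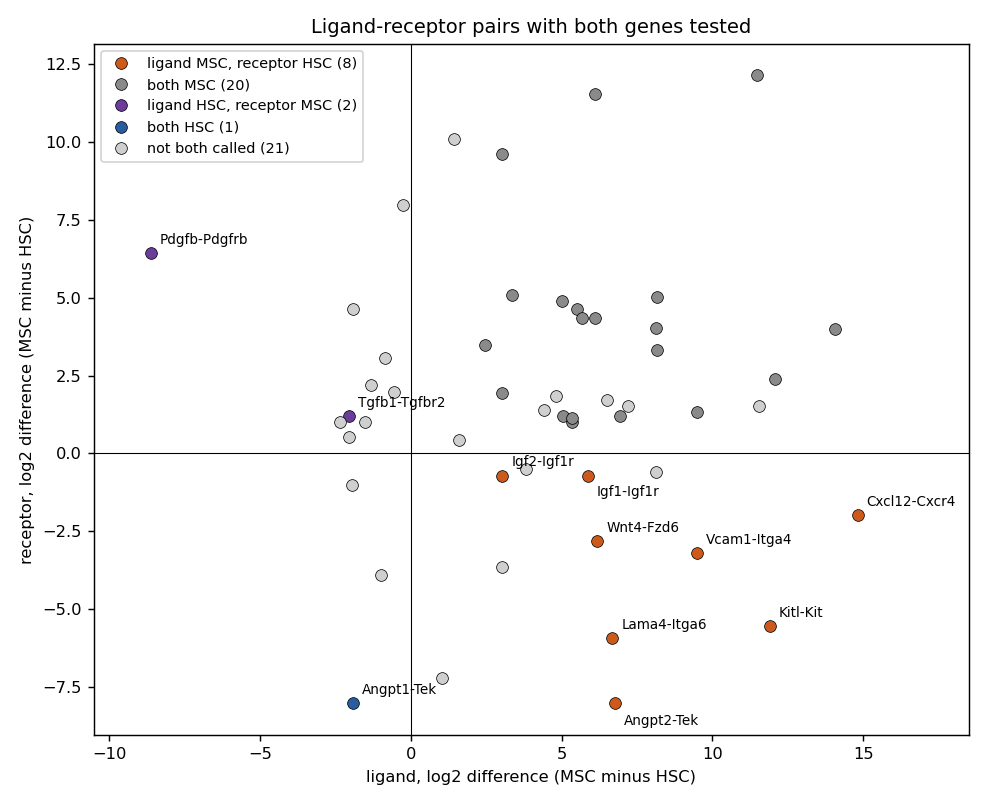
The log2 difference (MSC minus HSC) of the ligand (x axis) against that of its receptor (y axis) for the 52 pairs with both genes tested. Colours give the calls. The lower right holds the 8 pairs with the ligand higher in MSC and the receptor higher in HSC, and the upper right holds the 20 pairs in which both were higher in MSC. Differences of genes with no count in a population, such as Pdgfb, depend on the fit's prior count.

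Levels per kilobase of annotated exon ranked the ligands within the stroma. Cxcl12 came first at 4204 CPM per kb (mean of 3 MSC libraries), followed by Spp1 (osteopontin) at 1348, Gas6 (a ligand of TAM receptor kinases) at 900.1, Kitl at 293 and Vcam1 at 252 CPM per kb. The macrophage growth factors Csf1 and Il34 came next at 181 and 174 CPM per kb. Among the receptors in HSC, Kit stood at 73.9, the integrin chain Itgb1 at 58.6 and the tumour necrosis factor receptor Tnfrsf1a at 28.3 CPM per kb. Cxcr4 was at 18.1 CPM per kb in HSC, next to the hyaluronan receptor Cd44 at 17.7 and Itga6 at 17.2 CPM per kb.

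Among cytokines, the receptors of stem cell factor and FLT3 ligand were higher in HSC, while the lymphoid and macrophage factors Il7, Csf1 and Il34 were higher in the stroma. Flt3, a receptor of multipotent and lymphoid progenitors, had 0.254, 0 and 0 CPM in MSC, against 29.6, 25.4 and 20.8 CPM in HSC, a pooled HSC to MSC ratio of 144 (interval 25.7 to 5686) with 1 stromal count in all, and was called (adjusted p = 3.57e-06). The ligand Flt3l had 37.3, 34.4 and 19.5 CPM in MSC, against 17.0, 16.6 and 11.1 CPM in HSC, and all MSC values lay above all HSC values, but the difference of 1.04 was not called (SE 0.46, adjusted p = 0.0737). It passed without the pool as a block (1.17, adjusted p = 0.0126) and, in such a fit, without MSC pool 7 (1.12, adjusted p = 0.0166).

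Il7, the cytokine that B cell progenitors depend on, had 143, 128 and 90.9 CPM in MSC, against 4.55, 3.76 and 2.53 CPM in HSC (log2 5.05, SE 0.34, adjusted p = 2.03e-11). Its receptor Il7r had no count in MSC and 0 to 0.921 CPM in HSC, and was not tested. Csf1, the growth factor of macrophages and osteoclasts, had 1033, 1040.1 and 799 CPM in MSC, against 6.38, 8.14 and 5.07 CPM in HSC (log2 7.20, SE 0.28, adjusted p = 9.48e-16). Il34, which shares its receptor, had 347, 451 and 227 CPM in MSC, against 0.0967, 0.175 and 0 CPM in HSC, a pooled ratio of 3776 (interval 1290.3 to 18325). Both ligands were far above every HSC library. Their common receptor Csf1r had 4.32, 2.60 and 0 CPM in MSC, against 0.870, 0.613 and 3.45 CPM in HSC, with overlapping groups and no call (adjusted p = 0.35). Of the 16 cytokine pairs, Kitl-Kit alone had the ligand higher in MSC and the receptor higher in HSC, and Il1b-Il1r1 alone had both higher in MSC. Il1b, the inflammatory cytokine interleukin 1 beta, had 22.8, 17.5 and 45.4 CPM in MSC, against 3.09, 1.75 and 2.76 CPM in HSC. Its receptor Il1r1 had 506, 438 and 247 CPM in MSC, against 13.6, 15.2 and 6.56 CPM in HSC. Among MSC the library with the most Il1b, pool 7, also held the most neutrophil transcripts, described further below, and the part of those cells in its level was not tested.

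The receptor tyrosine kinase Tek (TIE2) marked HSC, and the 2 angiopoietins divided between the populations. Tek had 0, 0.649 and 0 CPM in MSC, against 54.9, 48.9 and 69.6 CPM in HSC, a pooled HSC to MSC ratio of 320.5 (interval 57.4 to 12665) from 1 stromal count (adjusted p = 1.82e-08). Angpt1, the activating ligand of TIE2, was higher in the stem cells themselves (259.9, 182 and 182 CPM in MSC, against 715, 803 and 850.01 CPM in HSC; log2 -1.92, SE 0.24, adjusted p = 5.2e-07). Its groups were far apart, although the stroma also held it in every pool. Angpt2, a context-dependent ligand of the same receptor, showed the opposite direction, with 68.5, 101 and 45.4 CPM in MSC, against 0.484, 1.14 and 0.345 CPM in HSC (log2 6.76, SE 0.51, adjusted p = 1.34e-10). The pair Angpt2-Tek was therefore called in opposite populations and Angpt1-Tek in the same one. Angpt2 had 7 counts in MSC pool 7, so the pair was not tested under a filter of at least 10 counts in every library of a population. Vegfa, the vascular growth factor, was higher in MSC (263, 277 and 208 CPM in MSC, against 29.1, 37.7 and 24.5 CPM in HSC; log2 3.04, SE 0.25, adjusted p = 8.72e-10). So was its co-receptor Nrp1 (365, 325 and 234 CPM in MSC, against 0.774, 0.350 and 0 CPM in HSC). The signalling receptor Kdr had 0, 0 and 6.49 CPM in MSC, against 3.48, 3.94 and 4.14 CPM in HSC and was not called (adjusted p = 0.096). Without MSC pool 7, which held its 1 stromal count, it was -7.82 in a fit with no block (adjusted p = 0.00519). It also passed with no block (-4.05, adjusted p = 0.0342) and with library totals (-4.01, adjusted p = 0.0458).

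Insulin-like growth factors and their binding proteins were stromal, and the receptor Igf1r differed little. Igf1 had 186, 195 and 169 CPM in MSC, against 2.80, 2.28 and 5.18 CPM in HSC (log2 5.86, SE 0.34, adjusted p = 1.07e-12). Igf2 had 14.7, 14.3 and 13.0 CPM in MSC, against 1.55, 1.58 and 2.19 CPM in HSC (log2 3.04, SE 0.89, adjusted p = 0.00816). Both growth factors were higher in every MSC library than in any HSC library. Without pool 3 or pool 5 Igf2 no longer passed (adjusted p = 0.159 and 0.0594). Igf1r, the kinase receptor of both, had 101, 73.4 and 39.0 CPM in MSC, against 121, 129 and 125 CPM in HSC (log2 -0.74, SE 0.28, adjusted p = 0.0385). It failed to pass on leaving out pool 3, 5 or 7 (adjusted p = 0.0578, 0.149 and 0.0919) and with no block (adjusted p = 0.0551). Igf2r, which clears IGF2 without signalling, was higher in MSC (108, 74.0 and 77.9 CPM in MSC, against 26.0, 27.3 and 13.1 CPM in HSC; log2 1.94, SE 0.33, adjusted p = 4.84e-05). In the IGF axis list of 21 genes, 15 were tested, 12 were higher in MSC, 1 (Igf1r) was higher in HSC and 2 (Insr and Irs2, the insulin receptor and a docking protein) were not called, with a median of 5.81. The binding protein Igfbp5 had 5754, 2178 and 2675 CPM in MSC and no count in HSC, at least 47619-fold higher. Igfbp3 likewise had 300.3, 392 and 169 CPM in MSC and no count in HSC, at least 3266-fold higher. Pappa, the secreted protease that cleaves several of these binding proteins, had 644, 606 and 454 CPM in MSC, against 0, 0.0875 and 0 CPM in HSC, a ratio of 19132 (interval 3432 to 755884) against 1 count in HSC. Htra1, another protease that acts on binding proteins, had 289.9, 259.7 and 195 CPM in MSC, against 0.387, 0.175 and 0 CPM in HSC (log2 10.19, SE 0.43, adjusted p = 3.41e-15). The binding protein Igfbp4 was among the 5 most abundant protein-coding transcripts of the stroma and was also present in stem cells. It had 6137, 6348 and 4519 CPM in MSC, against 174, 171 and 189 CPM in HSC (log2 4.98, SE 0.28, adjusted p = 3.94e-13).

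The reverse pattern, a ligand higher in stem cells and its receptor higher in stroma, was found for Pdgfb-Pdgfrb and Tgfb1-Tgfbr2. Pdgfb, a platelet-derived growth factor chain, had no count in MSC and 7.54, 9.54 and 7.94 CPM in HSC, at least 15.8-fold higher in HSC. Without pool 3 its adjusted p was 0.0518. Pdgfrb, its receptor and a marker of perivascular stroma, had 1050.1, 1115 and 623 CPM in MSC, against 11.1, 11.2 and 9.32 CPM in HSC (log2 6.43, SE 0.28, adjusted p = 4.53e-15). Tgfb1, a cytokine that restrains stem cell division, had 40.9, 61.0 and 39.0 CPM in MSC, against 216, 196 and 165 CPM in HSC (log2 -2.05, SE 0.27, adjusted p = 1.54e-06). Its receptor subunit Tgfbr2 had 93.2, 119 and 104 CPM in MSC, against 44.0, 48.7 and 42.4 CPM in HSC (log2 1.21, SE 0.27, adjusted p = 0.000898). Groups were separate for all 4 genes, although Tgfbr2 was not called with library totals (0.74, adjusted p = 0.204). The partner subunit Tgfbr1 was not called (57.1, 23.4 and 58.4 CPM in MSC, against 30.4, 29.1 and 25.9 CPM in HSC; adjusted p = 0.307). The other isoforms were stromal: Tgfb2 had 10.9, 9.74 and 19.5 CPM in MSC, against 0.290, 0 and 0 CPM in HSC (MSC to HSC ratio 109.9, interval 35.9 to 548, from 3 counts in HSC, adjusted p = 0.000253). Tgfb3 had 72.6, 68.8 and 26.0 CPM in MSC, against 1.84, 2.36 and 0.806 CPM in HSC (log2 5.05, SE 0.50, adjusted p = 1.73e-08). Both isoforms were low in HSC. Bone morphogenetic proteins were stromal too. Bmp4, a regulator of mesenchyme and blood development, had 118, 184 and 259.7 CPM in MSC, against 2.32, 2.98 and 2.19 CPM in HSC (log2 6.11, SE 0.34, adjusted p = 3.49e-13). Bmp6 had 459, 353 and 253 CPM in MSC and no count in HSC, at least 4306-fold higher. Their receptors Bmpr1a and Acvr1 were also higher in MSC, by 4.35 and 4.00 on the log2 scale.

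Of 7 Notch and Wnt pairs, 3 had both genes higher in MSC, and Wnt4-Fzd6 had the ligand higher in MSC and the receptor higher in HSC. Jag1, a Notch ligand, had 73.9, 101 and 84.4 CPM in MSC, against 2.51, 2.45 and 1.15 CPM in HSC (log2 5.36, SE 0.43, adjusted p = 5.06e-10). Its receptors were higher in MSC as well. Notch2 had 269, 208 and 221 CPM in MSC, against 113, 121 and 78.4 CPM in HSC (log2 1.15, SE 0.24, adjusted p = 0.000525). Notch1 had 34.5, 66.9 and 58.4 CPM in MSC, against 25.4, 30.0 and 18.4 CPM in HSC (log2 1.00, SE 0.38, adjusted p = 0.0405). Notch1 did not pass on leaving out any 1 pool (adjusted p = 0.113, 0.266 and 0.129 without pools 3, 5 and 7), and Notch2 had an adjusted p of 0.0517 without pool 3. With library totals neither passed (adjusted p = 0.429 for Notch1 and 0.243 for Notch2). Wnt4, a Wnt ligand, had 84.3, 81.8 and 64.9 CPM in MSC, against 0.774, 0.700 and 2.19 CPM in HSC (log2 6.19, SE 0.51, adjusted p = 6.89e-10). Its MSC values lay far above its HSC values in all pools. The Frizzled receptor Fzd6 had 4.06, 3.25 and 0 CPM in MSC, against 20.4, 29.4 and 22.0 CPM in HSC (log2 -2.81, SE 0.65, adjusted p = 0.00131). For Fzd6 the order was reversed, with every HSC library above every MSC library. Rspo3, which amplifies Wnt signals, had 77.2, 127 and 51.9 CPM in MSC and no count in HSC, at least 915-fold higher. Its receptor Lgr4 had 38.3, 48.0 and 13.0 CPM in MSC, against 5.90, 8.75 and 4.49 CPM in HSC (log2 2.40, SE 0.52, adjusted p = 0.000662; adjusted p = 0.105 without pool 3). Among 10 tested Notch target and modifier genes of 13 listed, 6 were higher in MSC and 2 in HSC, with a median of 2.04. Heyl, a Notch-induced repressor of vessel-associated cells, had 111, 49.3 and 90.9 CPM in MSC and no count in HSC, at least 948-fold higher. Notch3 had 271, 257 and 247 CPM in MSC, against 1.55, 2.89 and 0.806 CPM in HSC (log2 7.21, SE 0.35, adjusted p = 1.06e-13). Nrarp, a feedback inhibitor of Notch, was higher in HSC (0, 3.25 and 6.49 CPM in MSC, against 18.3, 17.3 and 19.3 CPM in HSC; log2 -3.73, SE 0.99, adjusted p = 0.00502; adjusted p = 0.183 without pool 3). The glycosyltransferases that tune Notch receptors split between the populations. Lfng was higher in MSC (74.1, 59.1 and 64.9 CPM in MSC, against 11.7, 10.7 and 7.71 CPM in HSC; log2 2.69, SE 0.39, adjusted p = 5.54e-06). Mfng was higher in HSC, with no count in MSC pools 3 and 5, 3 counts in pool 7 and 81.4, 98.1 and 60.4 CPM in HSC (HSC to MSC ratio 153, interval 52.4 to 745, from 3 counts in MSC, adjusted p = 0.0239).

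Of 11 adhesion pairs, Vcam1-Itga4 and Lama4-Itga6 had the ligand higher in MSC and the receptor higher in HSC, and 3 had both genes higher in MSC. Vcam1, the stromal counter-receptor of the integrin VLA-4, had 2571, 2245 and 1896 CPM in MSC, against 2.61, 4.55 and 2.30 CPM in HSC (log2 9.50, SE 0.34, adjusted p = 2.41e-16). Itga4, the alpha chain of VLA-4, had 17.8, 19.5 and 51.9 CPM in MSC, against 195, 231 and 167 CPM in HSC (log2 -3.18, SE 0.33, adjusted p = 8e-08). Itgb1, its beta chain, was higher in MSC (649.8, 547 and 610.3 CPM in MSC, against 227, 222 and 269 CPM in HSC; log2 1.34, SE 0.22, adjusted p = 2.75e-05). The chains of this integrin thus differed in opposite directions, and neither overlapped between the groups. Lama4, a laminin chain of vessel walls, had 247, 215 and 71.4 CPM in MSC, against 1.93, 2.10 and 1.04 CPM in HSC (log2 6.68, SE 0.35, adjusted p = 1.87e-13). The laminin receptor chain Itga6 had 3.30, 1.95 and 0 CPM in MSC, against 157, 184 and 124 CPM in HSC (log2 -5.93, SE 0.41, adjusted p = 2.22e-11). Only 16 counts of Itga6 were found over the 3 MSC libraries. Spp1 had 2047, 3083 and 1532 CPM in MSC, against 5.80, 9.02 and 8.29 CPM in HSC (log2 8.14, SE 0.32, adjusted p = 9.48e-16). Its receptor Cd44 had 76.9, 61.7 and 117 CPM in MSC, against 121, 104 and 135 CPM in HSC, a difference of -0.58 that was not called (adjusted p = 0.0748) and passed without pool 7 (-0.79, adjusted p = 0.0296). Of 23 integrin genes 20 were tested, 8 were higher in MSC and 6 in HSC, with a median of 0.72. The collagen receptor chain Itga1 had 118, 84.4 and 182 CPM in MSC, against 0, 0.263 and 0.460 CPM in HSC (log2 8.98, SE 0.51, adjusted p = 1.23e-12). Another collagen receptor chain, Itga11, had 142, 84.4 and 84.4 CPM in MSC, against 0.0967, 0.263 and 0 CPM in HSC (log2 9.41, SE 0.56, adjusted p = 1.81e-12). Both were stromal in every pool, as were the vitronectin receptor chains Itgav and Itgb5, higher in MSC by 3.21 and 5.42 on the log2 scale. The platelet integrin chains were on the stem cell side: Itga2b (CD41) had 0.254, 1.95 and 19.5 CPM in MSC, against 325, 309 and 217 CPM in HSC (log2 -7.68, SE 0.97, adjusted p = 0.00307). Itgb3 had 9.90, 1.95 and 0 CPM in MSC, against 52.3, 57.6 and 30.3 CPM in HSC (log2 -3.31, SE 0.56, adjusted p = 4.52e-05).

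Set against the progenitors of the same pools, on a TMM scale of those 12 libraries, the stem cell receptors fell into those that were highest in HSC and those that were not. In this comparison 15561 genes were tested and 6481 called (41.6%), 3563 higher in HSC (22.9%) and 2918 lower in HSC (18.8%), with a median of 0.00. It shares the HSC libraries with the stromal comparison, so the values stand side by side only. Without pool 3, 3437 genes were called, 1004 of them lower in HSC. Tek had a mean of 64.4 CPM in HSC, 1.60 in CLP, 1.34 in GMP and 11.1 in MEP (log2 4.72, HSC minus the mean of the 3 progenitors, adjusted p = 7.59e-07). Kit was less unequal, with 738 CPM in HSC, 195 in CLP, 344 in GMP and 407 in MEP (log2 1.28, adjusted p = 9.67e-06). HSC ranked first for both receptors, and MEP came next.

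The laminin receptor chain and the Frizzled receptor were also higher in HSC than in progenitors. Itga6 had 174 CPM in HSC, 33.1 in CLP, 64.6 in GMP and 65.1 in MEP (log2 1.76, adjusted p = 4.57e-05). Fzd6 had 26.8 CPM in HSC, 8.74 in CLP, 6.68 in GMP and 9.33 in MEP (log2 1.74, adjusted p = 8.49e-06). Cxcr4 showed the opposite direction, with 36.4 CPM in HSC, 128 in CLP, 85.7 in GMP and 32.9 in MEP (log2 -0.95, adjusted p = 0.000563). Its HSC mean lay below those of CLP and GMP and close to that of MEP. Flt3 was likewise a CLP transcript, with 28.3 CPM in HSC, 399.97 in CLP, 22.8 in GMP and 61.7 in MEP (log2 -1.46, adjusted p = 0.00588; 0.0822 without pool 5, which holds a CLP library of 587316 counts). Itga4 and Igf1r were not called against progenitors. Itga4 had 221 CPM in HSC, 265 in CLP, 202 in GMP and 389 in MEP (adjusted p = 0.473, or 0.0379 without pool 5). Igf1r had 139.8 CPM in HSC, 80.7 in CLP, 179 in GMP and 129.8 in MEP (adjusted p = 0.2). Angpt1 stood at 881 CPM in HSC, 79.9 in CLP and 181 in MEP, with GMP the lowest (log2 3.31, adjusted p = 5.69e-08), so the ligand higher in HSC than in stroma was also higher in HSC than in progenitors. Tgfb1 was not of that kind, at 215 CPM in HSC, 299 in CLP, 386 in GMP and 339 in MEP (log2 -0.66, adjusted p = 0.000727).

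**Figure D3:**
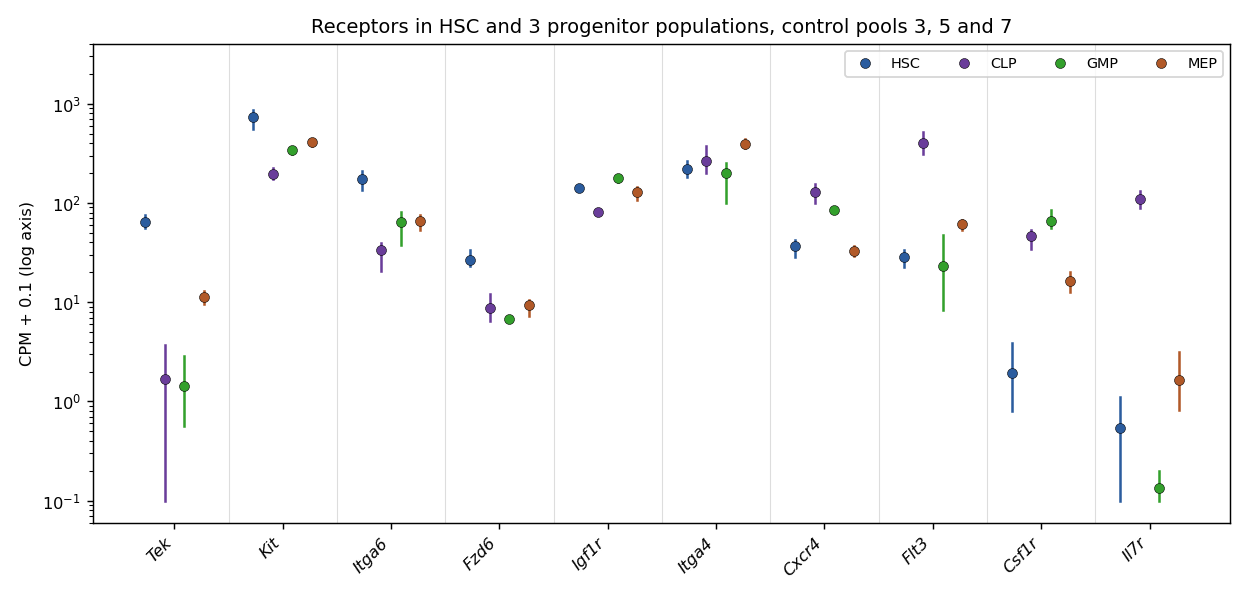
Levels of 10 receptors in HSC, CLP, GMP and MEP of control pools 3, 5 and 7, in CPM plus 0.1 on a log axis. Points are means of 3 libraries and vertical lines run from the lowest to the highest library. Tek, Kit, Itga6 and Fzd6 are highest in HSC, while Cxcr4, Flt3 and Il7r are highest in CLP and Csf1r is highest in GMP.

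Stem cell surface genes and transcription factors were higher in HSC, with a few that the stroma shared. All 24 stem cell surface genes listed were tested, 20 were higher in HSC, 1 in MSC and 3 were not called, with a median of -4.08. None was higher in MSC with library totals. Against progenitors, 20 of the 24 were higher in HSC, not the same 20 throughout. Among the genes with the smallest p was Ifitm1, an interferon-induced membrane protein (11.4, 5.19 and 13.0 CPM in MSC, against 156, 193 and 265 CPM in HSC; log2 -4.31, SE 0.34, adjusted p = 3.04e-10). Its relative Ifitm3 was the exception, higher in MSC (568, 689 and 428 CPM in MSC, against 188, 208 and 299 CPM in HSC; log2 1.31, SE 0.25, adjusted p = 0.000208). It was also higher in HSC than in progenitors (log2 2.49, adjusted p = 6.4e-07). Slamf1 (CD150), used to isolate stem cells, had 0.508, 0 and 0 CPM in MSC, against 29.8, 32.7 and 46.0 CPM in HSC (HSC to MSC ratio 100.1, interval 27.6 to 828, from 2 counts in MSC, adjusted p = 6.71e-07). Procr, the protein C receptor EPCR, had 8.12, 8.44 and 0 CPM in MSC, against 38.7, 55.4 and 39.7 CPM in HSC (log2 -2.60, SE 0.49, adjusted p = 0.000136). The genes not called were Ly6a, Cd48 (a lymphoid and myeloid surface protein that is low on stem cells) and Emcn (endomucin). Cd48 had 1.02, 3.25 and 45.4 CPM in MSC, against 2.90, 1.75 and 4.49 CPM in HSC (adjusted p = 0.574). Emcn had 8.63, 13.0 and 32.5 CPM in MSC, against 20.8, 22.9 and 33.4 CPM in HSC (adjusted p = 0.196); for both, MSC pool 7 was the highest stromal library. Without that library, in a fit with no block, Emcn was called higher in HSC (-1.43, adjusted p = 0.0129).

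Of 32 stem cell transcription factors 31 were tested, 23 were higher in HSC, 3 in MSC and 5 were not called, with a median of -3.59. Lmo2, an adaptor of the haematopoietic factor complex, had 10.7, 15.6 and 26.0 CPM in MSC, against 712, 734 and 757 CPM in HSC (log2 -5.68, SE 0.30, adjusted p = 2.52e-13). Gata2, a zinc finger factor of stem cells, had 3.05, 4.54 and 6.49 CPM in MSC, against 379.7, 406 and 270.3 CPM in HSC (log2 -6.66, SE 0.36, adjusted p = 3.36e-13). Erg, an ETS factor, had 0.254, 0.649 and 6.49 CPM in MSC, against 164, 192 and 151 CPM in HSC (HSC to MSC ratio 321, interval 109.6 to 1555, from 3 counts in MSC, adjusted p = 8.42e-12). Nfe2, a leucine zipper factor of megakaryocytes, had 8.88, 14.3 and 13.0 CPM in MSC, against 245, 235 and 269.9 CPM in HSC (log2 -4.43, SE 0.32, adjusted p = 4.8e-11). None of the 4 overlapped between the groups, and their HSC values ran from 151 CPM for Erg to 757 CPM for Lmo2. The leucine zipper factor Hlf and the homeobox factor Meis1 were also higher in HSC, with log2 differences of -4.56 and -4.61. Runx1, Hoxa10 and Hoxa5 were the 3 higher in MSC. Runx1, the haematopoietic master regulator, had 495, 593 and 389.5 CPM in MSC, against 131, 124 and 104 CPM in HSC (log2 2.03, SE 0.23, adjusted p = 1.45e-07). Hoxa10 had 70.8, 70.8 and 32.5 CPM in MSC, against 17.3, 25.7 and 21.4 CPM in HSC (log2 1.52, SE 0.38, adjusted p = 0.00252; adjusted p = 0.245 without pool 3). Hoxa5 had 49.2, 76.0 and 51.9 CPM in MSC, against 32.1, 35.1 and 29.1 CPM in HSC (log2 0.86, SE 0.34, adjusted p = 0.0483) and did not pass on leaving out pool 3, 5 or 7 (adjusted p = 0.252, 0.378 and 0.0701). With library totals in place of TMM, 1 of the 31 was called higher in MSC.

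Stromal identity genes formed the other pole. Of 31 listed 29 were tested and all 29 were higher in MSC. Their median difference was 13.27, or 11.89 with the genes that had no HSC count set at their bound. Groups did not overlap for any of the 29, nor for 495 of the 685 distinct list and pair genes as a whole. That share over all genes tested was not taken. Lepr, the leptin receptor, had 3733, 3428 and 2078 CPM in MSC, against 0.290, 0.263 and 0 CPM in HSC (log2 13.88, SE 0.45, adjusted p = 2.41e-16). Its HSC values rested on 6 counts. Adipoq, the adipokine adiponectin, had 1248, 1307 and 759.6 CPM in MSC and no count in HSC, at least 12695-fold higher. Serping1, the C1 inhibitor of complement, had 3649, 3728 and 2259 CPM in MSC, against 0.0967, 0.0875 and 0.230 CPM in HSC (log2 14.35, SE 0.44, adjusted p = 5.07e-17). Esm1, a secreted proteoglycan, had 1893, 1579 and 1143 CPM in MSC, against 0.0967, 0.0875 and 0 CPM in HSC, a ratio of 27196 (interval 7527 to 224593) from 2 counts in HSC. Ebf3, the transcription factor that maintains these niche cells in mice, had 1168, 1162 and 799 CPM in MSC, against 0.0967, 0.0875 and 0 CPM in HSC, a ratio of 17602 (interval 4871 to 145380.0), also from 2 counts. These genes summed to 63352 to 94141 CPM in MSC and 520.2 to 785 CPM in HSC.

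Among 32 stromal transcription factors 26 were tested, 21 were higher in MSC, 1 in HSC and 4 were not called, with a median of 6.86, or 6.77 with the genes lacking HSC counts at their bound. Foxc1, a forkhead factor of the niche, had 432, 589 and 299 CPM in MSC, against 0.580, 0.350 and 0.576 CPM in HSC (log2 9.73, SE 0.38, adjusted p = 8.69e-16). Prrx1, a limb mesenchyme homeobox factor, had 324, 257 and 156 CPM in MSC and no count in HSC, at least 3059-fold higher. Nfib had 226, 273 and 90.9 CPM in MSC, against 0.677, 0.350 and 0 CPM in HSC (log2 9.09, SE 0.44, adjusted p = 3.28e-14). The exception Mef2c, a MADS-box factor of both muscle and blood cells, was higher in HSC (37.3, 44.8 and 58.4 CPM in MSC, against 218, 199 and 202 CPM in HSC; log2 -2.24, SE 0.27, adjusted p = 3.65e-07). The developmental factors Zeb1, Nfix, Klf4 and Foxp1 were not called, but Klf4 passed without MSC pool 7 in a fit with no block (-0.80, adjusted p = 0.0333). Ebf1, placed on the B cell list because it directs B cell development, was a stromal transcript here as well (510.2, 579.8 and 370.1 CPM in MSC, against 3.29, 3.24 and 11.3 CPM in HSC; log2 6.61, SE 0.62, adjusted p = 0.000425).

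Genes of both descendants of the stroma were present in MSC. All 15 tested of 18 osteoblast genes were higher in MSC, with a median of 8.14. Bglap, which encodes osteocalcin, had 388, 207 and 1091 CPM in MSC, against 0.0967, 0 and 0 CPM in HSC, a ratio of 10896 (interval 1953 to 430560.0) from 1 count in HSC. Its neighbour Bglap2, a near-identical copy whose reads the authors' counting could divide with Bglap, had 238, 143 and 675 CPM in MSC and no count in HSC, at least 2272-fold higher. Phex, an osteocyte protease of phosphate handling, had 238, 164 and 71.4 CPM in MSC, against 0.0967, 0 and 0.115 CPM in HSC, a ratio of 3243 (interval 896 to 26807) from 2 counts. MSC pool 7 was the highest of the stromal libraries for both osteocalcin genes and the lowest for Phex. Of 16 adipocyte genes 10 were tested, 8 were higher in MSC, 1 in HSC and 1 was not called. Lpl, lipoprotein lipase, had 951, 1445 and 1376 CPM in MSC, against 11.0, 13.9 and 8.63 CPM in HSC (log2 6.80, SE 0.29, adjusted p = 4.02e-15). Cebpa, an adipocyte and granulocyte factor, had 239, 275 and 162 CPM in MSC, against 3.00, 2.54 and 3.22 CPM in HSC (log2 6.28, SE 0.33, adjusted p = 1.28e-13). The exception Adipor2, an adiponectin receptor, was higher in HSC (75.6, 87.0 and 64.9 CPM in MSC, against 181, 182 and 173 CPM in HSC; log2 -1.21, SE 0.25, adjusted p = 0.000413). Acsl1, an acyl-CoA synthetase, was not called (adjusted p = 0.336).

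Matrix genes were stromal almost without exception. All 10 tested fibrillar collagen genes of 11 listed were higher in MSC, 12 of 13 tested basement membrane genes of 16, and all 23 tested matrix glycoprotein and proteoglycan genes of 30. The medians were 9.65, 5.63 and 8.53. Col3a1, the collagen of reticular fibres, had 425, 307 and 299 CPM in MSC and no count in HSC, at least 3951-fold higher. Col5a2, which helps nucleate collagen fibrils, had 335, 261 and 584 CPM in MSC, against 0, 0.0875 and 0.115 CPM in HSC, a ratio of 4899 (interval 1354 to 40485) from 2 counts. Col1a1 and Col1a2, the chains of bone collagen, were among the most abundant protein-coding transcripts of the stroma. Col1a2 had 7537, 3989.6 and 23716 CPM in MSC, against 6.38, 7.62 and 4.49 CPM in HSC (log2 10.48, SE 1.24, adjusted p = 0.0177). Its call was lost with no filter on low counts (10.29, adjusted p = 0.0697). Col1a1 had 5117, 2027 and 22619 CPM in MSC, against 0.580, 0.875 and 1.73 CPM in HSC (log2 12.67, SE 0.62, adjusted p = 2.43e-07). MSC pool 7 was by far the highest library for both. Nid1, which links laminin to collagen IV, had 465, 299 and 292 CPM in MSC and no count in HSC, at least 4208-fold higher. Lamb1, a laminin chain, had 380.2, 470.1 and 331 CPM in MSC, against 0.580, 0.613 and 1.15 CPM in HSC (log2 8.99, SE 0.36, adjusted p = 1.66e-15). Lama5 was the basement membrane gene not called (20.8, 5.19 and 19.5 CPM in MSC, against 11.7, 12.3 and 2.42 CPM in HSC; adjusted p = 0.622). Sparc, the collagen-binding protein osteonectin, had 4254, 2824 and 9407 CPM in MSC, against 0.290, 0.0875 and 0.460 CPM in HSC (log2 14.16, SE 0.41, adjusted p = 5.07e-17). Mgp, an inhibitor of calcification, had 1333, 1605 and 396 CPM in MSC and no count in HSC, at least 14025-fold higher. Dcn, the proteoglycan decorin, had 1035, 581 and 1136 CPM in MSC and no count in HSC, at least 9276-fold higher.

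Receptors that stromal cells carry themselves were higher in MSC for 17 of 21 tested genes of 24, with none higher in HSC and a median of 6.89, or 6.43 with the genes lacking HSC counts at their bound. Cdh11, a mesenchymal cadherin, had 1345, 1195 and 1266 CPM in MSC and no count in HSC, at least 13210.4-fold higher. N-cadherin, Cdh2, had 468, 477 and 526 CPM in MSC, against 0.484, 0.350 and 0.691 CPM in HSC (log2 9.89, SE 0.35, adjusted p = 2.56e-16). The fibroblast growth factor receptor Fgfr2 had 676, 699.9 and 636 CPM in MSC, against 0.193, 0.175 and 0 CPM in HSC (log2 12.13, SE 0.42, adjusted p = 2.08e-16). Complement genes leaned the same way, with 9 of 10 tested higher in MSC of 16 listed. The protease gene C1s1 had 923, 849.9 and 526 CPM in MSC and no count in HSC, at least 9058-fold higher. Cfb, factor B, had 404, 456 and 247 CPM in MSC, against 1.93, 2.98 and 2.99 CPM in HSC (log2 7.13, SE 0.33, adjusted p = 1.66e-14). The exception was Cd55, a membrane inhibitor of complement, higher in HSC (16.0, 7.79 and 26.0 CPM in MSC, against 40.1, 36.9 and 45.4 CPM in HSC; log2 -1.55, SE 0.44, adjusted p = 0.0074; adjusted p = 0.0956 and 0.141 without pools 3 and 5).

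Division and protein synthesis genes were higher in stem cells. Of 28 S phase genes 26 were higher in HSC and none in MSC (median -2.99), and all 25 genes of G2 and mitosis were higher in HSC (median -3.79). Mcm3, a subunit of the replicative helicase, had 14.0, 16.2 and 13.0 CPM in MSC, against 319, 276 and 353 CPM in HSC (log2 -4.37, SE 0.30, adjusted p = 2.15e-11). Top2a, the topoisomerase of mitotic chromosomes, had 18.8, 27.3 and 51.9 CPM in MSC, against 550.02, 363 and 609.5 CPM in HSC (log2 -4.16, SE 0.30, adjusted p = 1.23e-10). The spindle checkpoint kinase Bub1b had 2.28, 5.84 and 6.49 CPM in MSC, against 118, 77.4 and 129.5 CPM in HSC (log2 -4.75, SE 0.44, adjusted p = 6.17e-09). Of the stromal libraries, pool 7 held the most Top2a and Bub1b. Against progenitors the same lists ran the other way: 19 of 28 S phase genes and 15 of 25 genes of G2 and mitosis were lower in HSC, with medians of -0.50 and -0.39. Among 16 tested brakes and regulators of the cycle, 3 were higher in MSC and 6 in HSC, which became 1 and 5 without pool 3. Gas1, a growth arrest protein, had 77.9, 110.4 and 51.9 CPM in MSC, against 0.193, 0.263 and 0.576 CPM in HSC (log2 7.89, SE 0.56, adjusted p = 4.6e-11). Ccnd2, a G1 cyclin, was higher in HSC (48.5, 52.6 and 104 CPM in MSC, against 211, 232 and 228 CPM in HSC; log2 -1.89, SE 0.27, adjusted p = 4.37e-06). Cdkn1c, the inhibitor p57 that keeps stem cells quiescent, was higher in MSC (47.7, 46.1 and 39.0 CPM in MSC, against 16.4, 20.0 and 23.5 CPM in HSC; log2 1.23, SE 0.40, adjusted p = 0.0162; adjusted p = 0.364 and 0.123 without pools 3 and 5). It was also higher in HSC than in progenitors, with 22.3 CPM in HSC, 1.64 in CLP, 0.617 in GMP and 1.03 in MEP (log2 4.45, adjusted p = 3.05e-07).

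All 35 cytosolic ribosomal protein genes were higher in HSC, from -1.33 to -2.75 with a median of -1.96. Groups did not overlap for any of them. That was also so for 495 of the 685 distinct list and pair genes, and the share over all genes tested was not taken. Rps6 had 235, 256 and 312 CPM in MSC, against 1597, 1519 and 2374 CPM in HSC (log2 -2.75, SE 0.23, adjusted p = 1.21e-09). Rpl4 had 396, 467 and 604 CPM in MSC, against 2150.2, 2060.01 and 2943 CPM in HSC (log2 -2.29, SE 0.23, adjusted p = 2.35e-08). The translation factor Eef1a1 was the most abundant HSC transcript among tested protein-coding genes. It had 2163, 2395 and 3947 CPM in MSC, against 10854, 10364 and 14182 CPM in HSC (log2 -2.10, SE 0.24, adjusted p = 1.35e-07). Of 20 glycolysis genes 14 were higher in HSC and 2 in MSC (1 without pool 3 or pool 5; median -1.49). With the stroma of batch C, the control MSC libraries of pools 15, 17 and 19 in a fit with no block, these counts were 9 and 3. Pkm, pyruvate kinase, had 126, 145 and 259.7 CPM in MSC, against 645, 701 and 673 CPM in HSC (log2 -2.03, SE 0.25, adjusted p = 3.83e-07). Hk1, a hexokinase, had 30.7, 42.9 and 32.5 CPM in MSC, against 255, 263 and 212 CPM in HSC (log2 -2.82, SE 0.27, adjusted p = 1.2e-08). For both, every HSC library exceeded every MSC library. Pdk4, which holds pyruvate back from the mitochondria, was higher in MSC (67.8, 44.1 and 84.4 CPM in MSC, against 1.26, 1.49 and 0.460 CPM in HSC; log2 5.79, SE 0.54, adjusted p = 6.92e-09). Of 27 respiratory chain genes 6 were higher in HSC, 21 were not called and none was higher in MSC (median -0.35), a share near the 21.2% of all genes tested. Atp5a1, an ATP synthase subunit, had 281, 304 and 416 CPM in MSC, against 632, 614 and 799 CPM in HSC (log2 -1.05, SE 0.22, adjusted p = 0.000441). It was not called with batch C stroma (adjusted p = 0.0835). The respiratory count was 2 without pool 3 and 4 without pool 5. With batch C stroma the direction turned, with 8 genes higher in MSC and 2 in HSC.

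Immune and immediate early genes gave smaller or mixed differences. Of 9 tested MHC class II genes 6 were higher in HSC, falling to 2 without pool 3 or pool 5. H2-DMa, which loads peptides, had 2.54, 7.79 and 13.0 CPM in MSC, against 65.0, 65.2 and 70.9 CPM in HSC (log2 -3.69, SE 0.48, adjusted p = 1.29e-06). Cd74, the invariant chain, had 40.1, 30.5 and 1987 CPM in MSC, against 52.1, 64.3 and 33.2 CPM in HSC, so MSC pool 7 stood far above every other library (not called, adjusted p = 0.828). Of 22 interferon-stimulated genes 5 were higher in MSC and 3 in HSC, which became 1 and 1 without pool 3, 2 and 5 with library totals, and 8 and 5 with batch C stroma; 18 of 21 were higher in HSC than in progenitors (median 1.59). Stat2, a transducer of interferon signals, had 99.5, 83.8 and 71.4 CPM in MSC, against 34.7, 39.1 and 19.9 CPM in HSC (log2 1.43, SE 0.31, adjusted p = 0.000645; adjusted p = 0.0626 without pool 3 and 0.0563 with batch C stroma). The antiviral sensor Oas1a had 2.03, 5.19 and 0 CPM in MSC, against 21.3, 23.2 and 36.3 CPM in HSC (log2 -2.96, SE 0.64, adjusted p = 0.000684). Of 24 immediate early genes 3 were higher in MSC and 8 in HSC, which became 0 and 5 without pool 3, 2 and 3 without pool 5, and 0 and 10 with library totals. With batch C stroma the list leaned the other way, with 11 higher in MSC and 3 in HSC. Nr4a1, a nuclear receptor induced by stimulation, had 43.7, 47.4 and 45.4 CPM in MSC, against 1019, 1405 and 533 CPM in HSC (log2 -4.49, SE 0.29, adjusted p = 6.99e-12). The phosphatase gene Dusp2 had 0.761, 1.95 and 6.49 CPM in MSC, against 186, 216 and 158 CPM in HSC (log2 -7.16, SE 0.46, adjusted p = 5.76e-12). Both were low in the stroma of pools 3, 5 and 7, but with batch C stroma Nr4a1 was not called (log2 -0.32, adjusted p = 0.701). Junb, an AP-1 subunit, was higher in MSC (1832, 1226 and 629.8 CPM in MSC, against 534, 651 and 392 CPM in HSC; log2 1.13, SE 0.24, adjusted p = 0.000572; adjusted p = 0.157 without pool 3). Fos, its partner, was abundant in all 6 libraries and had 5706, 4577 and 3655 CPM in MSC, against 2405, 3307 and 2314 CPM in HSC (log2 0.79, SE 0.24, adjusted p = 0.0104). Its call, higher in MSC, was lost without pool 3 (adjusted p = 0.444).

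**Figure D4:**
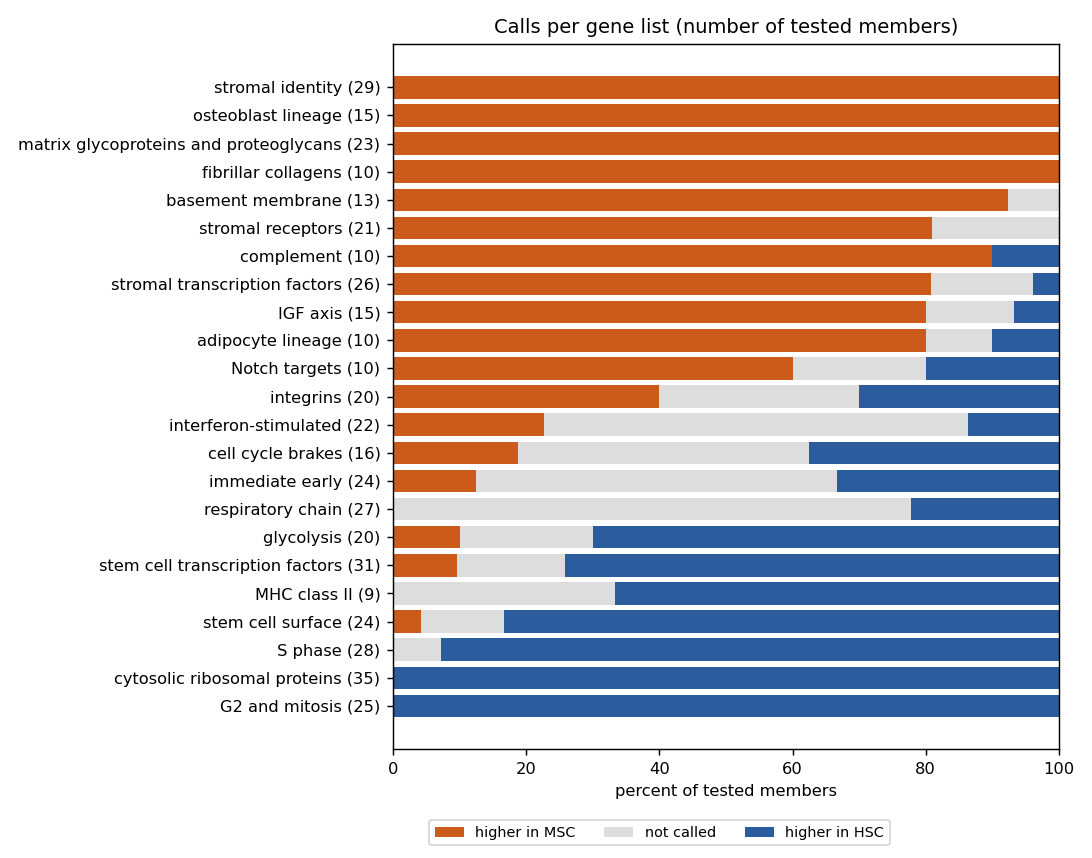
Share of the tested members of 23 gene lists that were called higher in MSC (orange), not called (grey) or called higher in HSC (blue), in percent, with the number of members tested in brackets. Stromal identity, osteoblast, matrix and collagen lists are wholly orange, the ribosomal protein and G2 and mitosis lists wholly blue, and over all 14241 genes the shares were 18.6% and 21.2%.

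Transcripts of other marrow cells were present in both populations. Summed CPM of 14 neutrophil markers was 3252, 2860 and 9005 in MSC, against 753, 393 and 2063 in HSC, and 13 of the 14 were called higher in MSC. The count was 11 without pool 7, 7 in a fit with no block, 6 in such a fit without MSC pool 7, and 2 with batch C stroma. S100a8 and S100a9, the calprotectin subunits, were the most abundant of them: S100a9 had 1050.3, 932 and 3051 CPM in MSC, against 187, 97.8 and 676 CPM in HSC (log2 2.64, SE 0.25, adjusted p = 7.94e-09). S100a8 had 691, 686 and 2837 CPM in MSC, against 135, 70.2 and 545 CPM in HSC (log2 2.67, SE 0.25, adjusted p = 5.31e-09). Pool 7 was the highest library of each population. Both passed with the block when pool 7 was left out (adjusted p = 0.000137 for S100a9 and 0.000226 for S100a8). Neither passed with no block (adjusted p = 0.0616 and 0.109), in that fit without MSC pool 7 (0.0835 and 0.136), or with batch C stroma (0.534 and 0.939). Plasma cell markers summed to 1510 and 795 CPM in MSC pools 3 and 5 and to 230813 CPM in MSC pool 7, against 148 to 193 CPM in HSC. Of 7 tested 2 were called higher in MSC, and 5 were called without pool 7, 4 without pool 5 and 6 with batch C stroma. Sdc1, the surface proteoglycan syndecan, had 312, 383 and 351 CPM in MSC, against 4.74, 3.59 and 3.91 CPM in HSC (log2 6.41, SE 0.30, adjusted p = 1.85e-14). Xbp1, a factor of secretory cells, had 243, 229 and 1065 CPM in MSC, against 72.8, 78.3 and 71.6 CPM in HSC (log2 2.35, SE 0.55, adjusted p = 0.0259). The immunoglobulin share of MSC pool 7 and its Xbp1 level were both the highest of the 6 libraries, while Sdc1 was even across the stroma. Erythroid markers summed to 1714 to 4655 CPM in MSC and 965 to 1806 CPM in HSC, with 3 called each way among 14, which became 5 in MSC and 2 in HSC without pool 3, and 5 and 3 with batch C stroma.

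Endothelial markers were scarce in MSC, at 50.5, 58.4 and 247 CPM summed over 18 genes, against 504, 561 and 453 CPM in HSC. Their defining markers Cdh5 (VE-cadherin) and Lyve1 were at or near 0: Cdh5 had 1 count in MSC and 2 in HSC. The 6 called higher in HSC included Tek and 3 other genes that blood stem cells also express. Tie1, a relative of Tek, had 0.254, 1.30 and 6.49 CPM in MSC, against 181, 206 and 121 CPM in HSC (log2 -7.89, SE 0.53, adjusted p = 3.75e-11). Vwf, von Willebrand factor, had 12.2, 14.3 and 0 CPM in MSC, against 118, 140.2 and 85.4 CPM in HSC (log2 -3.39, SE 0.36, adjusted p = 4.83e-08). Pecam1, an adhesion protein of endothelium and blood cells, had 0, 5.19 and 0 CPM in MSC, against 43.2, 51.7 and 61.7 CPM in HSC (log2 -4.96, SE 0.80, adjusted p = 0.00023). No MSC library reached any HSC library for these 3. The 2 called higher in MSC were Fabp4 and Stab1. Fabp4, a fatty acid-binding protein of adipocytes, macrophages and endothelium, had 18.8, 7.14 and 71.4 CPM in MSC, against 0.0967, 0.263 and 0.345 CPM in HSC (log2 6.52, SE 1.06, adjusted p = 2.38e-05). Stab1, a scavenger receptor of sinusoids and macrophages, had 4.32, 9.74 and 13.0 CPM in MSC, against 0.290, 0.438 and 0 CPM in HSC (log2 4.89, SE 1.29, adjusted p = 0.00391). Megakaryocyte and platelet genes were on the stem cell side, with 15 of 17 tested higher in HSC (median -4.98, or -4.55 with the genes lacking MSC counts at their bound) and 17 of 17 higher in HSC than in progenitors. Pf4, platelet factor 4, had 1.52, 3.90 and 0 CPM in MSC, against 82.1, 55.3 and 99.7 CPM in HSC (log2 -4.98, SE 0.52, adjusted p = 3.95e-08; adjusted p = 0.0635 with batch C stroma). Macrophage markers summed to 2653 to 3188 CPM in MSC and 219.8 to 419 CPM in HSC, and Vcam1, which stroma also makes, accounted for 1896 CPM or more in each MSC library. Without Vcam1 the sums were 500.3, 408 and 1292 CPM in MSC, against 217, 215 and 416 CPM in HSC. Of 8 tested, 4 were called higher in MSC, among them Vcam1, Hmox1 and Lyz2, and Spic was called higher in HSC. These counts, 4 and 1, became 2 and 0 without pool 3, and 3 and 2 with batch C stroma or library totals. Lyz2, the lysozyme of myeloid cells, had 316, 274 and 773 CPM in MSC, against 189, 179 and 381 CPM in HSC (log2 0.79, SE 0.22, adjusted p = 0.00616), and was called higher in HSC with batch C stroma (-1.25, adjusted p = 0.026). It did not pass without pool 3 (adjusted p = 0.149), with no block (0.127) or with library totals (0.667). Cd5l, Marco, Siglec1 and Spic had no count in MSC. Of 10 primary granule genes 4 were called higher in MSC and 1 in HSC, which became 1 and 1 without pool 7, and 0 and 2 without pool 5 or with library totals. The pan-leukocyte gene Ptprc (CD45) had 32.7, 16.2 and 104 CPM in MSC, against 258, 257 and 259 CPM in HSC (log2 -2.89, SE 0.43, adjusted p = 0.00047), highest among MSC in pool 7. The part of these cells in the differences above was not tested.

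**Figure D5:**
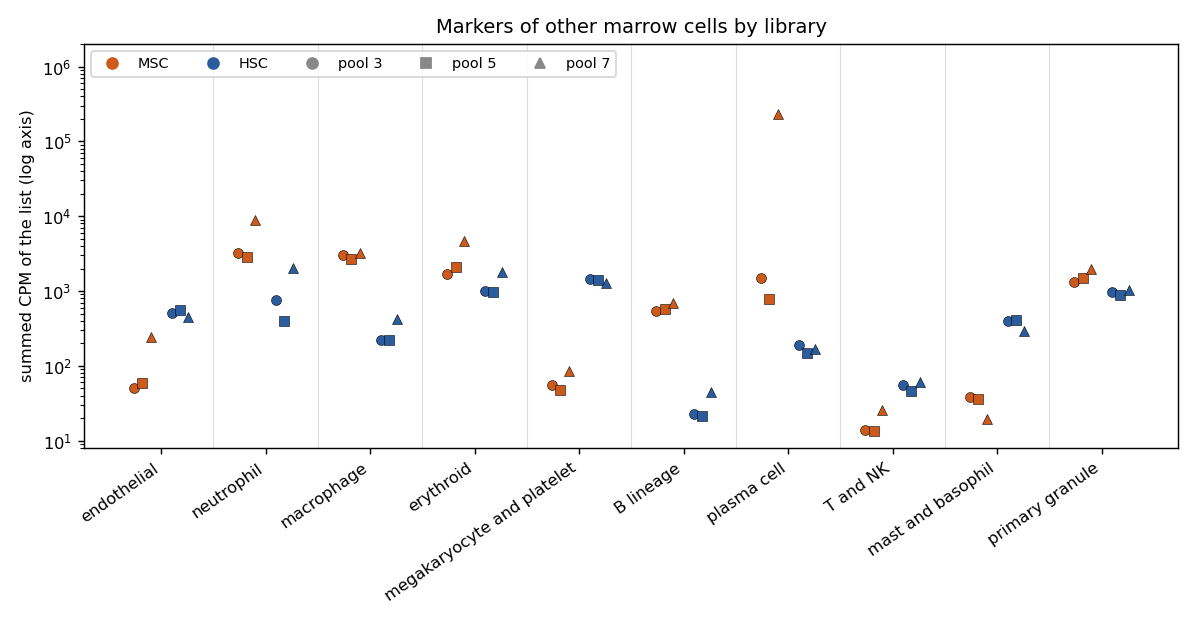
Summed CPM of marker lists of other marrow cells in each library, on a log axis: orange MSC and blue HSC, circle pool 3, square pool 5 and triangle pool 7. Plasma cell markers reach 230813 CPM in MSC pool 7, neutrophil markers lie higher in MSC than in HSC of the same pool, and megakaryocyte markers lie higher in HSC in all pools.

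Genome-wide, the genes with the smallest p among abundant protein-coding genes higher in MSC included Sparc, Esm1, Serping1, Ebf3, Sfrp4, Gpx3, Gdpd2, Igfbp5 and Ogn. Sfrp4, a secreted Wnt antagonist, had 1918, 2047 and 1169 CPM in MSC, against 0.0967, 0 and 0 CPM in HSC, a ratio of 58861 (interval 10562 to 2325080.0) from 1 count in HSC. Gpx3, the extracellular glutathione peroxidase, had 4248, 3486 and 2253 CPM in MSC, against 1.74, 1.75 and 0.806 CPM in HSC (log2 11.18, SE 0.35, adjusted p = 5.07e-17). Ogn, the proteoglycan osteoglycin, had 732, 491 and 409 CPM in MSC, against 0.387, 0.263 and 0.115 CPM in HSC (log2 10.93, SE 0.38, adjusted p = 1.93e-16). The lowest MSC value among these was 409 CPM, for Ogn, and the highest HSC value was 1.75 CPM, for Gpx3. On the other side stood, among others, Ctla2a, Muc13, Lmo2, Gata2, Kit, Spn, Aldh1a1, Rgs1 and Car2. Ctla2a, a cysteine protease inhibitor, had 3.30, 1.95 and 6.49 CPM in MSC, against 427, 529 and 618 CPM in HSC (log2 -7.29, SE 0.36, adjusted p = 5.14e-14). Muc13, a transmembrane mucin, had 1.02, 1.95 and 6.49 CPM in MSC, against 345, 366 and 424 CPM in HSC (log2 -7.84, SE 0.41, adjusted p = 1.34e-13). Aldh1a1, an aldehyde dehydrogenase that makes retinoic acid, had 0.508, 0.649 and 0 CPM in MSC, against 191, 210.1 and 129 CPM in HSC, an HSC to MSC ratio of 339 (interval 116 to 1645) from 3 stromal counts. Spn (CD43) was higher in HSC than in stroma (1.78, 1.95 and 6.49 CPM in MSC, against 280.3, 317 and 218 CPM in HSC; log2 -7.14, SE 0.41, adjusted p = 6.72e-13) but not called against progenitors (adjusted p = 0.391, or 0.0378 without pool 5). Rgs1, a regulator of G protein signalling, was higher in HSC in both comparisons (log2 -7.13 MSC minus HSC, adjusted p = 1.37e-12; log2 1.81 HSC minus progenitors, adjusted p = 3.63e-07).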

How the data were processed

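RNA was measured by sequencing of sorted marrow populations; libraries were made, per the labels' protocols, from DNase-treated total RNA with a kit that keeps strand. The deposited values are estimated counts per gene, already whole numbers, that the authors made; the submitters' processing notes list Salmon, FastQC 0.11.5 and build mm10. Which annotation and Salmon release were used is not given in the sources used here. Repeated identical lines of a gene were reduced to 1, which left 56332 genes.

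The 6 libraries were filtered with filterByExpr, scaled by TMM and fitted with edgeR 4.0.16 (R 4.3.3), with population and pool as terms; HSC were set against the mean of CLP, GMP and MEP in a like fit of 12 libraries. Genes were called at a Benjamini-Hochberg adjusted p under 0.05 over all genes tested. The procedure was tested on simulated data. The pairing comes from the pool numbers in the labels, which mark the same mice. Deviations of same-pool libraries correlated at 0.06, -0.04 and 0.05, within the range of -0.1 to 0.09 for MSC and HSC libraries of different pools. DESeq2 1.42.0 and voom in limma 3.58.1 were alternatives, with other scalings, filters and libraries. Intervals and floors cover counting error only. MSC totals of 321860 to 3753007 counts give stromal values the lower precision. Positions and exon lengths come from GENCODE release 21 for mouse, and promoters from RefSeq.

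Members and lists were chosen with earlier results of these data known. Named were the pairs called in opposite populations and the main niche factors. From each list came up to 4 members per direction by p, and the list's exceptions. The 10 protein-coding genes per direction with the smallest p at a mean of at least 50 CPM were added. So were the 5 most abundant protein-coding genes per population. Some genes that these rules name are not reported here. Other genes, such as Ptprc, Cd74, Procr and Il34, were chosen after their values were seen.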

Additional observations from a re-analysis of the deposited data

How the results depend on the processing

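Of 5666 genes called between MSC and HSC, with 2642 higher in MSC and 3024 in HSC, totals ran from 3243 to 5576 when 1 pool was left out (1565 to 2691 in MSC, 1678 to 2885 in HSC). Pairs with the ligand higher in MSC and the receptor in HSC then ran from 5 to 7, and genes called between HSC and progenitors from 3437 to 5975 (1004 to 2837 lower in HSC). The low ends came without pool 3. Without the replicate block, 6563 genes were called, 5542 of them shared, and Igf1-Igf1r and Igf2-Igf1r were lost; the progenitor comparison gave 6530. The stromal libraries were the shallower ones. With every library thinned to 321860 counts, the total of MSC pool 7, which cut the HSC libraries most, 244 genes were called (221 in MSC, 23 in HSC) and 1 pair, Kitl-Kit. A 2-fold threshold left 3393 genes, 1611 in HSC. Higher in MSC were 4198 genes with voom and 4179 with batch C stroma. With batch C stroma, 4662 of the calls were shared and 13 of them had the opposite direction, among the genes named Lyz2 alone (-1.25). That setting ended the calls of Igf1r, Atp5a1, Stat2, Nr4a1, Nrarp, Itgb3, S100a8, S100a9, Pf4, Mcpt8 and Il1b, and Insr, not called in the 6 libraries, was -0.82. In every other setting all shared calls between MSC and HSC kept their direction, while the thinned libraries gave Mef2c (1.16), Adipor2 (0.11) and Tgfb1 (0.89) the opposite sign with no call. No low-count filter ended the calls of Hoxa5, Col1a2, Cdkn1c, Spic, Mcpt8 and Notch1. DESeq2 ended those of Hoxa5, Igf1r, Notch1 and Spic, RLE scaling and leaving out immunoglobulin and ribosomal RNA transcripts, an alternative chosen after seeing the data, that of Hoxa5. At least 10 counts in every library of a population left 6 pairs, without Angpt2-Tek and the Igf1r pairs and with Flt3l-Flt3. The cause was not tested.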

Other observations

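Control stromal libraries of another batch, labelled C and made from pools 15, 17 and 19, also held the main niche ligands, with more Cxcl12 and less Kitl than any batch A library. Batch and pool cannot be told apart there, and levels are CPM scaled over 9 libraries. Cxcl12 had 44076, 48620 and 46114 CPM in the batch C stroma, with a mean of 46270 CPM against 34176 CPM in the batch A stroma. Kitl had 842, 1141 and 1259 CPM in batch C, with a mean of 1080.3 CPM against 1722 CPM in batch A, and Angpt2 averaged 79.3 CPM in batch C and 71.4 CPM in batch A. The immediate early gene Nr4a1 was unlike these, with 1587, 458 and 262 CPM in batch C and a mean of 45.3 CPM in batch A. Neutrophil and bone collagen transcripts were lower in batch C: S100a9 averaged 430.3 CPM in batch C and 1677 CPM in batch A, and Col1a1 averaged 3158 CPM in batch C and 9924 CPM in batch A, where pool 7 held the most of both. The cause was not tested.

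Rarer marrow cells left few transcripts in either population. Markers of T and natural killer cells summed to 14.0, 13.6 and 26.0 CPM in MSC, against 55.3, 45.6 and 60.6 CPM in HSC, and 2 of 6 tested were called higher in HSC, or 1 without pool 3, 5 or 7. Nkg7, a granule protein of cytotoxic cells and of early myeloid cells, had 5.84, 1.95 and 13.0 CPM in MSC, against 35.6, 25.0 and 31.8 CPM in HSC (log2 -2.71, edgeR adjusted p = 0.000622). Mast cell and basophil markers summed to 38.6, 36.4 and 19.5 CPM in MSC, against 402, 416 and 294 CPM in HSC. Gata2, which stem cells also make, was nearly all of the HSC sum but the lesser part of the MSC sum. The basophil protease gene Mcpt8 had 5.58, 5.84 and 6.49 CPM in MSC, against 0.967, 0.0875 and 0.691 CPM in HSC (log2 3.64, edgeR adjusted p = 0.024). Without pool 3, 5 or 7 it did not pass the test (adjusted p = 0.122, 0.199 and 0.0914). B lineage markers summed to 545, 583 and 688 CPM in MSC, against 22.7, 21.2 and 44.9 CPM in HSC, most of it Ebf1 in the stroma.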
